A study of Mus musculus with 4 samples.

Results

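Kruppel-like factors are zinc-finger transcription factors, and 8 of their genes, Klf2, Klf4, Klf5, Klf6, Klf9, Klf10, Klf13 and Klf15, were described here in the lungs of mice that breathed clean air or cigarette smoke. They were picked by name, with earlier results of these data already known, and each was read from its only array feature with a single gene symbol. They make up 8 of 30142 named genes on the array, and all 8 lay above the expression floor that left 18084 genes for testing. All animals were male C57BL mice, an inbred laboratory strain, and treatment started when they were 10 weeks old. Smoke was mainstream smoke, given in sessions of 1 h on 5 days of each week. The 4 groups were the 2-week control (clean air, 12 weeks old at the end, 5 mice), 2 weeks of smoke (12 weeks old, 5 mice), the 4-week control (clean air, 14 weeks old, 5 mice) and 4 weeks of smoke (14 weeks old, 4 mice). The mice of a group were mixed into 1 pool and hybridised to 1 array, so the spread between animals is not seen and no pool has a replicate.

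Members of this family bind GC-rich and CACCC sequences through a trio of zinc fingers at their C-terminal end, and differ in the part that activates or represses. Klf2, Klf4, Klf5 and Klf6 belong to the subgroup known mainly for activation, whereas Klf9, Klf10 and Klf13 recruit the Sin3a corepressor. In the lung, Klf2 and Klf4 are known for keeping vascular endothelium quiescent, and Klf5 for its part in the maturation of the alveolar epithelium. Several members are induced rapidly by stimuli, among them blood flow for Klf2 and Klf4, growth signals for Klf6 and Klf10, and glucocorticoids for Klf9 and Klf15.

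Signals below are the deposited normalised intensities on a linear scale, and differences are log2 values, smoke minus control unless stated. A difference between a single pair of pools has no replicate check and no p-value, and is described as higher or lower, with 1.5-fold as the limit for counting. For a mean effect of smoke, limma was fitted to the 4 arrays with smoke and duration as terms. Its error is the change of the smoke difference between durations, moderated across genes. A gene is said to have risen or fallen only at a Benjamini-Hochberg adjusted p under 0.05 over 18084 genes. Had the linear values been made with base e in place of base 2, log2 differences would shrink to 0.693 of those printed. The mean effects of Klf4 and Klf9 would then be -0.62 and -0.53. The highest signals of the pools, 812124 to 845602, lay above 65535, taken as the highest value of the scanner. The base was not tested. All folds and 1.5-fold counts below are those of base 2, and with base e the folds would be smaller.

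All 8 genes had less signal in the smoke pool than in the control pool of the same age at both durations, though Klf5 differed by only -0.03 at 2 weeks and by 0.01 after median centring. Of all genes tested, 29.3% were lower at both durations. Klf4 and Klf9 fell and the other 6 did not pass, against 0.315% of all genes that fell. In 7 of the 8, both smoke pools lay below both control pools, an arrangement seen in 16.8% of genes tested, and Klf15 was the exception. The median effect of the 8 genes was -0.49, with 0.00 over all genes tested (-0.0038). With the deposited scaling, 7 of the 8 had an unadjusted p under 0.05, as did 11.6% of genes tested. After cyclic loess scaling neither call held, and an unadjusted p under 0.05 was found in 6 of the 8 and in 2075 of 18084 genes. In whole lung, fewer cells of a type and less RNA per cell cannot be told apart.

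**Figure D1:**
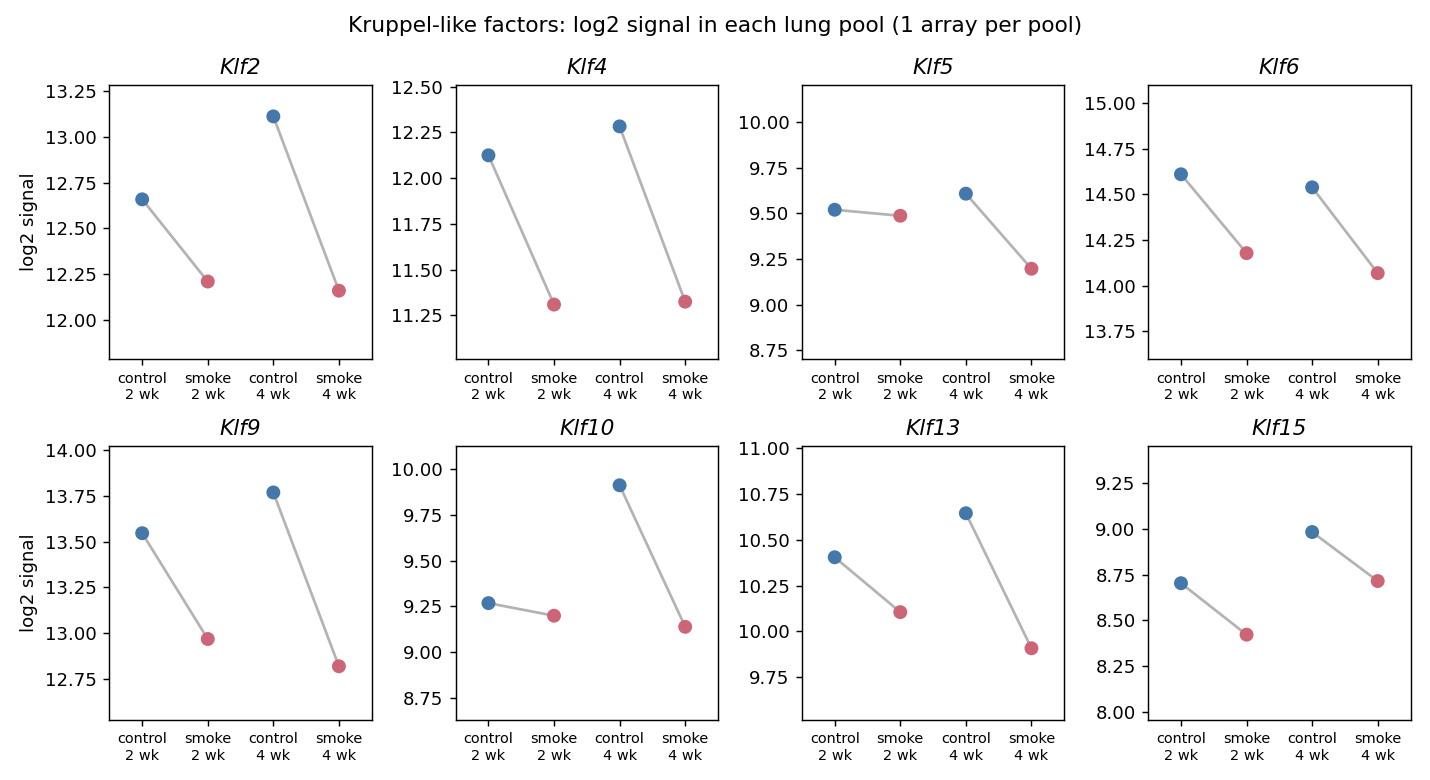
Log2 signal (vertical axis, each panel spanning the same 1.5 log2 units) of the 8 genes in the 4 lung pools, 1 point per pool, blue for clean air and red for smoke, with a line joining pools of the same age. The red points lie below the blue point of the same age in every panel, and below both blue points in all panels but that of Klf15.

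Among the activators, Klf4, which acts in endothelium and in epithelial differentiation, had the largest effect. Its signal was 4466 in the 2-week control pool, 2536 after 2 weeks of smoke, 4985 in the 4-week control pool and 2564 after 4 weeks of smoke. Both smoke pools were thus within 1.01-fold of each other and well below the control pools, which differed 1.12-fold. The smoke pool was 1.76-fold lower at 2 weeks and 1.94-fold lower at 4 weeks. Over both durations Klf4 fell by 0.89 ± 0.104 (SE, limma with 2 smoke and 2 control pools, adjusted p = 0.0181), a mean of 1.85-fold. The call was lost after cyclic loess (-0.85, adjusted p = 0.0688) and without the duration term (adjusted p = 0.125). It was also lost when any 1 of the 4 pools was left out, in fits that drop the duration term as well, since 3 arrays leave no residual degree of freedom with it. Over 12 alternatives the effect ran from -0.97 to -0.81. The lowest adjusted p, 8.8e-07, was that of median centring, where limma estimated a common spread for all genes.

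Klf2, the flow-responsive factor of endothelium that also keeps lymphocytes in a resting state, had signals of 6465 in the 2-week control, 4734 in the 2-week smoke, 8856 in the 4-week control and 4572 in the 4-week smoke pool. The smoke pools again lay close together, 1.04-fold apart, while the 4-week control was 1.37-fold above the 2-week control. Smoke was 1.37-fold lower at 2 weeks and 1.94-fold lower at 4 weeks. Against the 2-week control, the 4-week smoke pool was 1.41-fold lower. The effect of -0.70 ± 0.142 over both durations did not pass (adjusted p = 0.0931). Klf2 passed in 3 of its 12 alternatives. These were median centring, where limma estimated a common spread for all genes, a floor at the 60th percentile and the fit of protein-coding genes. The adjusted p were 0.000304, 0.0295 and 0.00163 in that order.

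Klf6, an early-response factor expressed in many tissues, had the smallest spread between durations among the activators. Its signals were 25006 and 23795 in the 2-week and 4-week control pools and 18539 and 17185 in the smoke pools of the same ages. Smoke was 1.35-fold and 1.38-fold lower at 2 and 4 weeks, and the effect of -0.45 ± 0.101 did not pass (adjusted p = 0.126). Klf5, a factor of proliferating and alveolar epithelium, had signals of 734 in the 2-week control, 717 in the 2-week smoke, 779.8 in the 4-week control and 587 in the 4-week smoke pool. Here 3 pools lay close together and the 4-week smoke pool alone was lower, by 1.33-fold against its own control. Its effect of -0.22 ± 0.125 did not pass (adjusted p = 0.608). It was -0.08 without the 4-week smoke pool and -0.37 without the 2-week smoke pool.

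Among the factors that recruit Sin3a, Klf9, a target of glucocorticoid and thyroid hormone receptors, had the largest effect. Its signal was 11966 in the 2-week control, 8010.4 in the 2-week smoke, 13966 in the 4-week control and 7222 in the 4-week smoke pool. Smoke was 1.49-fold lower at 2 weeks, just short of the 1.5-fold limit, and 1.93-fold lower at 4 weeks. Klf9 fell by 0.77 ± 0.125 over both durations (limma, adjusted p = 0.0473), a mean of 1.70-fold. It no longer passed without the expression floor (adjusted p = 0.0585), after cyclic loess (0.149), without the duration term (0.203), or without both that term and any 1 of the 4 pools. Over its 12 alternatives the effect ran from -0.88 to -0.65. The lowest adjusted p, 4.9e-05, was again that of median centring, with a common spread for all genes.

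Klf13, which is known for its role in T cells and the heart, had signals of 1355 in the 2-week control, 1101 in the 2-week smoke, 1602 in the 4-week control and 959.7 in the 4-week smoke pool. It was 1.23-fold lower with smoke at 2 weeks and 1.67-fold lower at 4 weeks, and its effect of -0.52 ± 0.133 did not pass (adjusted p = 0.178). Klf10, first described as a gene induced early by TGF-beta, had signals of 616 in the 2-week control, 587 in the 2-week smoke, 964 in the 4-week control and 563 in the 4-week smoke pool. Only the 4-week control pool stood apart, with the other 3 within 1.09-fold of each other. Smoke was accordingly 1.05-fold lower at 2 weeks and 1.71-fold lower at 4 weeks, but the 4-week smoke pool was only 1.09-fold lower than the 2-week control. The effect of -0.42 ± 0.172 did not pass (adjusted p = 0.419). It was -0.10 without the 4-week control pool and -0.74 without the 2-week control pool.

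Klf15, a glucocorticoid-induced regulator of amino acid and glucose metabolism, had signals of 417 in the 2-week control, 343 in the 2-week smoke, 506 in the 4-week control and 420.2 in the 4-week smoke pool. Both groups were higher at 4 weeks, by 1.21-fold in clean air and 1.23-fold in smoke. The 4-week smoke pool was therefore level with the 2-week control, and the pools of the groups overlapped. The smoke difference was nearly the same at the 2 durations, -0.28 and -0.27, and the effect, -0.27 ± 0.101, missed the threshold (adjusted p = 0.358). It was -0.13 without the 2-week smoke pool, -0.13 without the 4-week control pool, -0.41 without the 2-week control pool and -0.42 without the 4-week smoke pool.

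**Figure D2:**
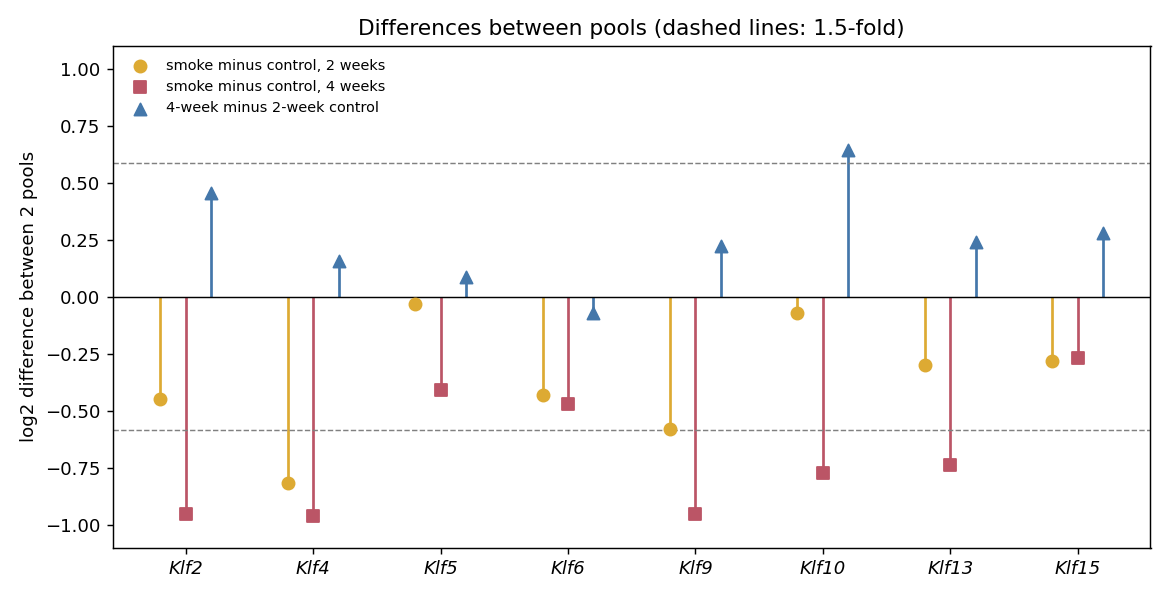
Log2 differences between pairs of pools (vertical axis) for the 8 genes (horizontal axis): smoke minus control at 2 weeks (circles), at 4 weeks (squares) and the 4-week minus the 2-week control (triangles), with dashed lines at 1.5-fold. All circles and squares lie below 0, with Klf4 alone past the lower line at 2 weeks and 5 genes past it at 4 weeks.

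By the 1.5-fold limit, Klf4 alone was lower at 2 weeks, where 1.22% of genes tested were. At 4 weeks Klf2, Klf4, Klf9, Klf10 and Klf13 were lower, or 5 of 8, where 1.5% of genes tested were. Counts over all genes at 4 weeks shifted with scaling, from 458 higher and 272 lower to 347 higher and 362 lower after median centring, while the same 5 genes stayed past the limit. With base e, Klf4 at 2 weeks and Klf10 and Klf13 at 4 weeks would lie within the 1.5-fold limit. None of the 8 was 2-fold lower at either duration. The difference was larger at 4 than at 2 weeks in 7 of the 8, and Klf15 differed slightly the other way. The share of all genes tested with a larger difference at 4 weeks was not counted. Past 1.5-fold in either direction were 549 genes at 2 weeks and 730 at 4 weeks. The change in the smoke difference itself was past 1.5-fold in Klf10 alone (-0.71), against 5.16% of genes tested, and it was not tested because no pool had a replicate.

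In Klf2, Klf4, Klf10, Klf9 and Klf13 the control pools differed more between durations than the smoke pools did. The differences were 0.45, 0.16, 0.64, 0.22 and 0.24 against -0.05, 0.02, -0.06, -0.15 and -0.20. Klf5 differed the other way, with 0.09 between control pools and -0.29 between smoke pools. So did Klf6 (-0.07 and -0.11) and Klf15 (0.28 and 0.29), by little. No gene of the 8 differed 1.5-fold between the 2 smoke pools, where the widest gap was 1.23-fold (Klf15), and 3.14% of genes tested did. Between the control pools, which differed in age and in the mice they held, 7 of the 8 were higher at 4 weeks, and Klf6 was lower by 0.07 (-0.07, or 0.03 after cyclic loess). Klf10 was the one gene higher by 1.5-fold there (1.56-fold), with 1.85% of genes tested, and Klf2 followed at 1.37-fold. Over all genes this comparison held 334 higher and 406 lower genes as deposited, 449 and 280 after cyclic loess, and 476 and 269 after median centring. Its median over all genes tested was 0.01, 0.06 and 0.08 in that order. The share of genes higher by any amount was not counted. The comparisons at 4 weeks and between control pools share the 4-week control array.

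The promoters of the 3 genes with the largest effects are shown. Each is the stretch of 250 bases just before the annotated start in RefSeq on build GRCm38.p6, read 5′ to 3′ along the gene's strand, in lower case with motif matches in capitals. Klf2 lies on the plus strand (chr8:72318812-72319061), Klf4 on the minus strand (chr4:55532476-55532725) and Klf9 on the plus strand (chr19:23140976-23141225).
Klf2: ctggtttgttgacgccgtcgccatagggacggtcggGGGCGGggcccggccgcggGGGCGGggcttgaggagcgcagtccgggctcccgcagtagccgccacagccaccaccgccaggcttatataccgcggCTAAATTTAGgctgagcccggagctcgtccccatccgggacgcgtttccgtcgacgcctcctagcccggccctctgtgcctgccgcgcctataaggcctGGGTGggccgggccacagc
Klf4: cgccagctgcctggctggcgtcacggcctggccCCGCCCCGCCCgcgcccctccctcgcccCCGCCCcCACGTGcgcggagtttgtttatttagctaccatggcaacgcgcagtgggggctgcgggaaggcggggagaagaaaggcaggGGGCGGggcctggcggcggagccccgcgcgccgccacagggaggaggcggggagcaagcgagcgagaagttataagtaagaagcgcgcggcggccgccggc
Klf9: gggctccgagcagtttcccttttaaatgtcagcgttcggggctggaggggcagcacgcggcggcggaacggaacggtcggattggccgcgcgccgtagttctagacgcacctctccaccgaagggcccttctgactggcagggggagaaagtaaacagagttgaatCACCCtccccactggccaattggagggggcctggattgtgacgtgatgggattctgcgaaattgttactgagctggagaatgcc
The motifs were searched on both strands and were CACCC and GGGCGG, which family members and Sp factors bind, TGACGTCA (the cAMP response element), AGAACA (the core of a glucocorticoid receptor site), CACGTG (the E-box of clock and other factors, added after the sequences were seen), the CArG box of serum response factor and the site of MEF2.

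Windows were found for 6 of the 8 genes, and G and C made up 59.6% (Klf9) to 74.0% (Klf4) of their bases. Over all windows the median was 52.4%, and the shares of windows given below were not matched for it. In Klf2, a match to the MEF2 site (CTAAATTTAG) began 118 bases before the start, and 2.92% of 32851 windows of the same length held such a match. MEF2 factors are known regulators of Klf2. Klf2 also held 2 GGGCGG matches and 1 CACCC match, and Klf4 held 4 GGGCGG matches, of which a neighbouring pair overlaps by a single base, and a CACGTG. Klf9 held a CACCC alone, 84 bases before the start. GGGCGG was present in 32.7%, CACCC in 52% and CACGTG in 6.02% of windows. The other windows, those of Klf6, Klf13 and Klf15, held GGGCGG (1, 3 and 1 matches). Klf13 and Klf15 each held 1 CACCC match, and CACGTG was found 1 time in Klf6 and 2 times in Klf15. None of the 6 windows held TGACGTCA, AGAACA or a CArG box, which were in 1.55%, 16.1% and 1.47% of windows. A match is a description of these letters and not of binding.

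Of 9 further Kruppel-like factor genes, Klf1, Klf14 and Klf17 lay under the floor, and none of the 6 tested passed limma, with 1 of them at an unadjusted p under 0.05. That one was Klf7, an activator known from neurons and adipose tissue, at -0.52 ± 0.121 (adjusted p = 0.138); it passed after median centring and in the fit of protein-coding genes. Its signals were 14962 and 15939 in the control pools and 11730 and 9887 in the smoke pools, 1.61-fold lower at 4 weeks. Klf3, which works with the corepressor CtBP, was at -0.23 ± 0.108, and Klf12, of the same subgroup, was at 0.08 and -0.51 at 2 and 4 weeks. The Sin3a-binding genes Klf11 and Klf16 were at 0.04 ± 0.105 and 0.12 ± 0.115. Across the 14 tested genes of the family 2 fell, and the median effect was -0.35. Whether the 8 and the 6 differ from each other was not tested.

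**Figure D3:**
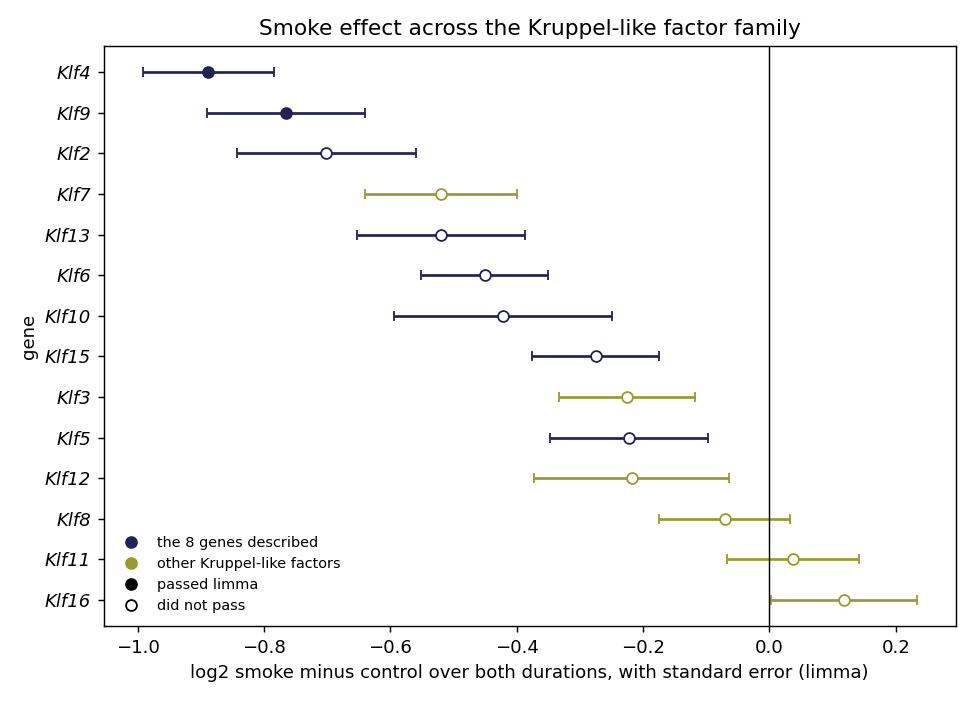
Limma effect of smoke over both durations (horizontal axis, log2, bars showing the standard error) for the 14 tested Kruppel-like factor genes, dark for the 8 genes described and olive for the others, filled where the adjusted p is under 0.05. The filled points, Klf4 (-0.89) and Klf9 (-0.77), lie farthest to the left, and Klf11 and Klf16 lie to the right of 0.

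Genes that work with the family differed little. Of 4 tested Sp factors, the closest relatives in the zinc-finger region, 11 corepressors and coactivators, 6 ubiquitin ligases that act on family members and 11 genes of the ERK5, MEF2 and CCM pathway upstream of Klf2 and Klf4, none passed limma or had an unadjusted p under 0.05. Their median effects were -0.13, -0.03, -0.03 and -0.07. The largest effects in these lists were -0.24 ± 0.118 for Sp4, -0.18 ± 0.109 for the acetyltransferase Kat2b, 0.26 ± 0.112 for the ligase subunit Fbxo32 and -0.25 ± 0.135 for Mef2c, which was at -0.47 at 4 weeks. Sin3a itself was at 0.03 ± 0.108, and Mapk7, which encodes ERK5, at 0.12 ± 0.102. Among 10 genes of the TGF-beta pathway none passed and 3 had an unadjusted p under 0.05, namely Skil (-0.37 ± 0.110) and Smad7 (-0.32 ± 0.102), which restrain the pathway, and the receptor Tgfbr2 (0.25 ± 0.101).

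Known targets were mixed. Of 6 tested genes that Klf2 and Klf4 activate in endothelium, the sphingosine 1-phosphate receptor S1pr1 fell by 0.71 ± 0.106 (limma, adjusted p = 0.0348) and 5 did not pass. Its signals were 11636 and 13556 in the control pools and 7506 and 7802 in the smoke pools, and the call was lost after cyclic loess. The matricellular gene Ccn3 was at -0.31 ± 0.151, the anticoagulant receptor Thbd at -0.29 ± 0.124, and Nos3, the endothelial nitric oxide synthase, was at -0.04 ± 0.105. Of 7 tested genes that they repress, the chemokine Ccl2, a monocyte attractant, rose by 0.81 ± 0.133 (adjusted p = 0.0498), a call also lost after cyclic loess, while 1.15% of all genes rose. The adhesion molecule Vcam1 was at 0.39 ± 0.103 (adjusted p = 0.185), tissue factor, F3, was at -0.71 ± 0.134 (adjusted p = 0.0761), and the angiopoietin Angpt2 was at -0.38 ± 0.102. None of 5 tested metabolic targets of Klf15 passed or had an unadjusted p under 0.05, with the alanine transaminase gene Gpt at 0.17 ± 0.103.

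Klf9 and Klf15 were set beside 15 other genes that glucocorticoids regulate. Of these, 5 fell and 10 did not pass, with a median effect of -0.43. The genes that fell were Pdk4, a brake on glucose oxidation, which fell by 1.00, the ERBB inhibitor Errfi1 at -0.98, the phosphatase Dusp1 at -0.73, the period gene Per1 at -0.70 and Cdkn1a, a brake on cell division, at -0.70. After cyclic loess none of the 5 calls held, and in Per1 and Cdkn1a the smoke and control pools overlapped. The transcription factor Cebpd was at -0.71 ± 0.119 (adjusted p = 0.0512), and the metallothionein Mt2 at 0.48 ± 0.203. Tsc22d3, a glucocorticoid-induced leucine zipper, was at -0.43 ± 0.101 and Fkbp5, a chaperone of the receptor complex, at -0.16 ± 0.115. Between the control pools the list had a median 0.60 higher at 4 weeks, with 8 of 15 genes past 1.5-fold. Klf9 was 0.22 and Klf15 0.28 higher there, under that median. Fkbp5 was 0.90 and Tsc22d3 0.60 higher in that comparison.

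Immediate early genes, transcribed in the first minutes after a stimulus, were the list with the lowest median effect among those compared here (-1.03). Of 19 tested, 12 fell and 7 did not pass, and 4 of the 12 calls held after cyclic loess (Btg2, Ccn1, Csrnp1 and Fos). Nr4a1, an orphan nuclear receptor, was at -3.67 and -2.35 at 2 and 4 weeks, so that its difference was smaller at 4 weeks. Egr1, a zinc-finger factor of the growth response, was likewise at -1.98 and -1.31. Over both durations the effect was -3.01 for Nr4a1, -2.46 for Fos, a subunit of AP-1, -1.68 for Ccn1, a matricellular protein, and -1.65 for Egr1, all 4 of which fell. Fosb, at -2.18 ± 0.419, had the largest effect of those that did not pass (adjusted p = 0.0812). Among the immediate early genes that fell, Jun (-0.81 and -0.93), Btg2, Zfp36 (-0.88 and -1.07) and Csrnp1 differed more at 4 weeks than at 2. The other genes of the list that fell differed less at 4 weeks. All of the 8 Kruppel-like factor genes but Klf15 differed more at 4 weeks, whereas most of the immediate early genes that fell differed less. In the control pools the list was lower at 4 weeks, by a median of 0.27 (-0.27), whereas the 8 Kruppel-like factor genes had a median 0.23 higher. The part of these genes' stimuli in the values of the Kruppel-like factor genes was not tested.

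**Figure D4:**
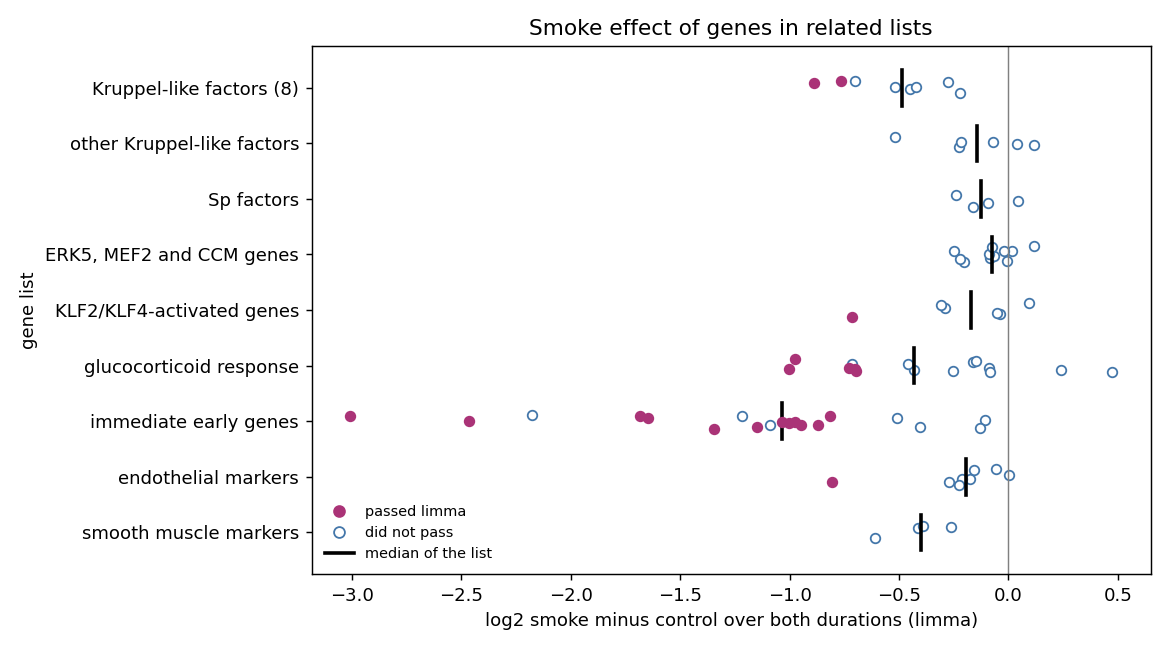
Limma effect of smoke over both durations (horizontal axis, log2) for each tested gene of 9 lists (vertical axis, with a random vertical shift), filled where the gene passed, with a bar at the list's median. The medians are -0.49 for the 8 Kruppel-like factor genes, -0.14 for the others of the family, -0.43 for glucocorticoid response genes, -1.03 for immediate early genes and -0.19 for endothelial markers.

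The genes with the most similar pattern were found as the smallest Euclidean distance between log2 profiles over the 4 pools, each centred on its own mean, among protein-coding genes. This is a description over 4 arrays. Genes found this way resemble the gene they were matched to, its smoke difference included, so whether they passed limma is not a separate result. Nearest to Klf4 were Dusp8, a MAP kinase phosphatase, Cldn5, the endothelial tight junction claudin, and Tcim, a small transcriptional regulator, at distances of 0.0815, 0.0912 and 0.0974. Nearest to Klf9 were Ppp1r3a, a glycogen-targeting subunit of protein phosphatase 1, Tcim and the immunoglobulin-domain protein Vsig2, and all 5 genes fell with smoke. Crispld2, a secreted protein, the gelatinase Mmp9 and the small GTPase Rhob were nearest to Klf2, and Cdc42ep2, Dpep1 and 1700017B05Rik to Klf15, and none of these 6 passed. Among the 28 pairs of the 8 genes, the nearest were Klf4 and Klf9 (0.176) and the farthest Klf4 and Klf5 (0.702).

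The lung label was borne out by its markers, with signals of 473797 to 512830 for Sftpc, the surfactant protein C gene, and 812124 to 845602 for Scgb1a1, the club cell secretoglobin, over the 4 pools, and the summed signal of 8 endothelial markers was 244454 to 313465. Cell markers that moved alongside the Kruppel-like factor genes are given as the smoke to control ratio of the summed signal of a list, at 2 and 4 weeks. The ratio was 0.879 and 0.809 for 8 endothelial markers, of which 1 fell (Cldn5, by 0.81, and none with cyclic loess) while 7 did not pass, and 0.973 and 0.674 for 4 smooth muscle markers, of which none passed and 3 had an unadjusted p under 0.05. Klf2 stood at 73.2% and 51.6% of its control, and Klf4 at 56.8% and 51.4%. Alveolar macrophage markers went the other way, with ratios of 2.25 and 3.32 for 5 markers, 4 of which rose (3 after cyclic loess). These were the scavenger receptor Marco at 2.70, Cd68 at 2.28, the integrin Itgax at 1.93 and the mannose receptor Mrc1 at 0.78. Of 6 monocyte and interstitial macrophage markers, 3 that encode chains of complement C1q rose, at 1.21 for C1qb, 1.06 for C1qc and 0.73 for C1qa (C1qb alone after cyclic loess), and the list had ratios of 1.20 and 0.864. That sum was mostly Ly6c2 (46829 of 47918 in the 2-week control), which was at 0.25 and -0.25 at 2 and 4 weeks. Higher in smoke at both durations were 5 of the 6 markers. For 5 neutrophil markers the ratios were 0.963 and 0.391, and between control pools this list was 1.87-fold higher at 4 weeks. No marker passed limma among the tested ones of alveolar type 1 and type 2, club, ciliated, fibroblast, T cell, B cell, cardiac muscle, adipocyte, mesothelial and erythroid lists. In these lists 0 to 3 markers each had an unadjusted p under 0.05. Several of their sums were lower in smoke, with ratios at 2 and 4 weeks of 0.824 and 0.55 for cardiac muscle, 0.727 and 0.654 for the single erythroid marker, 0.891 and 0.829 for fibroblast and 0.946 and 0.876 for alveolar type 1 markers. The fibroblast sum was mostly Inmt (67181 of 86996.5 in the 2-week control). Of 5 fibroblast markers, 1 was lower in smoke at both durations (Inmt, effect -0.33) and 2 were higher at both (Col1a1 at 0.54, Col1a2 at 0.39). Mesothelial (1.18 and 0.62), adipocyte (1.82 and 0.523) and B cell (1.02 and 0.783) sums were lower at 4 weeks only. The adipocyte sum was mostly Car3, and the mesothelial sum was mostly Upk3b. After 4 weeks of smoke Car3 stood at 49.9% of its control, Plin1 at 90.6% and Adipoq at 102.5%. Upk3b stood at 59.3% and Msln at 76.3% in the same comparison. T cell (1.31 and 1.26), ciliated (1.25 and 1.13) and alveolar type 2 (1.05 and 1.07) sums were higher, and club cell ratios were 1.01 and 0.971. Between control pools, adipocyte, monocyte and interstitial macrophage, and mesothelial sums were 2.37-fold, 1.79-fold and 1.72-fold higher at 4 weeks. The genes that make up most of these sums, Car3, Ly6c2 and Upk3b, were 2.52-fold, 1.80-fold and 1.77-fold higher. Adipoq and Plin1 were 1.17-fold and 1.08-fold higher. Of the 6 monocyte and interstitial macrophage markers, 3 were at least 1.5-fold higher, and Cx3cr1 was 1.37-fold lower. The part of these cell types in the values of the Kruppel-like factor genes was not tested.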

How the data were processed

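RNA from 4 pools of lung was measured on 4 arrays, grouped by their titles. The authors deposited linear intensities, and the submitters' processing notes name RMA and version 1.4.1 of Affymetrix Expression Console. RMA makes arrays alike in distribution, so only changes relative to other genes remain. The genome build, filters and the linear scale's base were not given in the sources used here. A log2 table had been foreseen, so log2 was taken first. Of 65956 features, 30604 had 1 gene symbol, 2146 several and 33206 none listed. Symbols were updated by Entrez ID with RefSeq GRCm38.p6 (22818 matched, 827 changed). The feature with the highest mean stood for a gene, and genes above the 40th percentile of mean log2 signal (5.82) were tested with limma 3.58.1 in R 4.3.3 (1 residual degree of freedom, prior of 5.38), checked on simulated data. No other columns were present. The precision is limited by the number of arrays, as there is 1 per group.

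The 8 genes and all lists, including cell markers, were chosen with earlier results of these data known. Genes outside the 8, cell markers included, are named where they passed (the 4 largest effects where over 4 of a list passed), among the 3 largest effects of a list that did not pass, and as the 3 nearest profiles of Klf4, Klf9, Klf2 and Klf15. Sin3a, Mapk7, Nos3, Tsc22d3, Fkbp5, Cdkn1a, Klf11 and Klf16 were added after their values were seen, as was the CACGTG motif. So were Jun, Btg2, Zfp36 and Csrnp1. Some listed genes had no feature with a single symbol and were not analysed here. Alternatives were other scalings, floors, gene sets, models, folds and feature rules, and leaving out each pool.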

Additional observations from a re-analysis of the deposited data

How the results depend on the processing

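The direction of the smoke effect over both durations was negative for each of the 8 Kruppel-like factor genes in all 12 alternatives, while the calls were not stable. As reported, 265 genes passed (208 rising, 57 falling) and 2 of the 8 fell. After cyclic loess 72 passed (64 and 8) and 0 of the 8, after median centring 585 (375 and 210) and 4, where limma estimated one common spread for all genes, with protein-coding genes alone 886 and 5, and without a duration term 0 and 0, with an unadjusted p under 0.05 in 1163 genes and 5 of the 8. With no floor 1 of the 8 fell (Klf4), and with an intensity trend, a floor at the 60th percentile or the mean of all features 2, 3 and 2 fell. Leaving out 1 pool at a time, without a duration term and with the lone pool of an arm taken to vary like the other arm, left 0 to 34 genes and 0 of the 8, with an unadjusted p under 0.05 in 597 to 1469 genes and in 4 to 6 of the 8. Apart from the alternatives with other genes or fewer arrays, the cause was not tested.

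At a 2-fold limit, 136 genes differed at 2 weeks, 158 at 4 weeks, 139 between control pools, 70 between smoke pools and 134 in the change of the smoke difference, with 0 of the 8 in each. With no floor the last counts were 876 between smoke pools and 1794 in the change. The change of the smoke difference was past 1.5-fold in 2 of the 8 after median centring (Klf2 and Klf10). Of 160 recomputed differences of single genes, 6 changed sign, each under 0.1 in size. Smoke was compared with control within each duration through the duration term, and no further block by replicate was possible because the groups hold 1 pool each. No background signal or detection value was used, so the limit for weakly expressed genes is unknown.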
